A study of Mus musculus with 22 samples.

Results

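The Hox genes of the 4 mammalian clusters (Hoxa, Hoxb, Hoxc and Hoxd) were followed through the mouse spinal cord above and below the level of T6, in sham-operated animals and after the aorta had been clamped. Of 38 Hox genes listed, 33 were measured by a probe set that carries their symbol alone, among 18193 genes tested. For each gene the probe set with the highest mean over the arrays was used, and no filter on low values was applied. Hoxb8 and Hoxd4 had only probe sets that name several genes and were not used, and Hoxa6, Hoxc11 and Hoxc12 were not analysed here. All animals were wild-type C57Bl/6 mice of 10 to 12 weeks, subjected either to sham surgery or to 7.5 min of aortic cross-clamping, which interrupts blood flow to the cord downstream. Sham cords gave 4 rostral (above T6) and 3 caudal (below T6) arrays, cords 24 h after clamping 3 and 3, and cords 48 h after clamping 4 and 4. The labels give no time after surgery for sham. Nothing in them ties the arrays of a group to separate animals, so the p-values measure only the spread between these samples. One further rostral array, number 276, is labelled 48 h in its description and 24 h in its source name, and was put in no group.

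Hox genes encode homeodomain transcription factors that give cells along the body axis their positional identity. Within a cluster the genes lie in the order of their paralogue numbers, and genes of low number are switched on further forward in the embryo than genes of high number, a relation known as collinearity. In the spinal cord the combination of Hox proteins assigns motor neurons to cervical, brachial, thoracic and lumbar columns, and much of this pattern persists into adult life.

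Both arrays numbered 283 (24 h) stood apart, because their Hox genes went against their region labels. They are shown separately here, and the sham and 48 h comparisons were fitted without any 24 h array. The 48 h caudal array 271 had the narrowest spread of log2 values, with a standard deviation of 2.05 against 2.21 to 2.27 on the other 21 arrays. The tissue label fitted the marker genes. The mean log2 signal of neuronal markers was 11.50 to 12.69 over the 22 arrays, that of oligodendrocyte markers 12.60 to 13.02 and that of astrocyte markers 11.07 to 11.92, whereas forebrain markers lay at 4.13 to 4.83. Heart muscle genes, a list of 8 made after the data had been seen, averaged 9.54 to 11.12 on the 48 h rostral arrays, 6.15 to 8.07 on the 48 h caudal arrays and 10.81 on array 276, against 5.12 to 5.55 on the sham arrays and on the 24 h arrays outside number 283. In such bulk samples fewer cells of a type and less RNA per cell cannot be told apart.

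The boundary at which the caudal to rostral difference set in lay, in the Hoxd cluster, between the neighbouring genes Hoxd8, Hoxd9 and Hoxd10, and the 250 bases before the annotated start of each are shown for that reason (RefSeq, GRCm38.p6, plus strand, with CG pairs in capitals). Hoxd8 is at chr2:74704365-74704614, Hoxd9 at chr2:74697513-74697762 and Hoxd10 at chr2:74691641-74691890.
Hoxd8: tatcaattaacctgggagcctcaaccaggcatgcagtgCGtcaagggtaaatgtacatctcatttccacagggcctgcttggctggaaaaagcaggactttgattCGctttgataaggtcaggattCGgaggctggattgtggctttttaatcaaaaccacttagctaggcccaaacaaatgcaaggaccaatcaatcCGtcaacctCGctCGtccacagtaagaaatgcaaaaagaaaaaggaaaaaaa
Hoxd9: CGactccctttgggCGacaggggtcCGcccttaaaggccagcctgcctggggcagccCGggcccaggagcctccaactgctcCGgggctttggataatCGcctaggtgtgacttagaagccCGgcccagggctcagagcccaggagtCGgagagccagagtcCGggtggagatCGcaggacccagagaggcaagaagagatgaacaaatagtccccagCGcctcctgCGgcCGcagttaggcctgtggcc
Hoxd10: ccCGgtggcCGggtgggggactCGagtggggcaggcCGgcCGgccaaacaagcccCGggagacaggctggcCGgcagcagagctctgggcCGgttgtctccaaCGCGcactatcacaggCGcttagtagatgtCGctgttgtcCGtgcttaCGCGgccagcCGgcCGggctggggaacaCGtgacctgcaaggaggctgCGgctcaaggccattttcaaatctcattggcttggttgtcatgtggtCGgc
The windows hold 6, 13 and 20 CG pairs, where the median of 32851 RefSeq promoter windows of the same length was 6 and that of the 24 entries for the listed Hox genes 12.5. These 24 entries cover 22 of the 38 genes. A search of both strands for the composite Hox-Pbx site TGATNNAT found it in 4 of the 24 Hox windows and in 7.68% of all windows. The caudal-type site TTTATNG was in 2 of the 24 against 9.81% of all windows, and the Meis site TGACAG in 2 against 15.9%. None of the 3 motifs occurred in the 3 windows printed.

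In sham cords the caudal samples were higher in most Hox genes of paralogue groups 9 to 11 and in Hoxb13, and lower in some of groups 4 and 5. With limma, 12 of the 33 Hox genes passed an adjusted p of 0.05, 9 higher and 3 lower below T6. Over all genes tested 0.429% passed, 0.407% higher and 0.022% lower. All 9 higher genes belonged to paralogue groups 9 to 13, of which 14 were measured (median log2 difference, caudal minus rostral, 0.91). All 3 lower genes belonged to groups 1 to 8, of which 19 were measured (median −0.26). The median over all genes was −0.01. With all 21 arrays as labelled in the fit, where the pooled spread was wider, 5 members passed (Hoxc5, Hoxd9, Hoxd10, Hoxb13 and Hoxc13). Leaving out 1 array at a time gave 9 to 17 members, and without caudal 48 h array 271 the count over all genes went from 78 to 235. The differences did not rise evenly with paralogue number but peaked at group 10 and were smaller at groups 12 and 13. Across the 33 genes Pearson's r with the paralogue number was 0.45 and Spearman's rho 0.55, as a description of genes that share the same arrays.

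**Figure D1:**
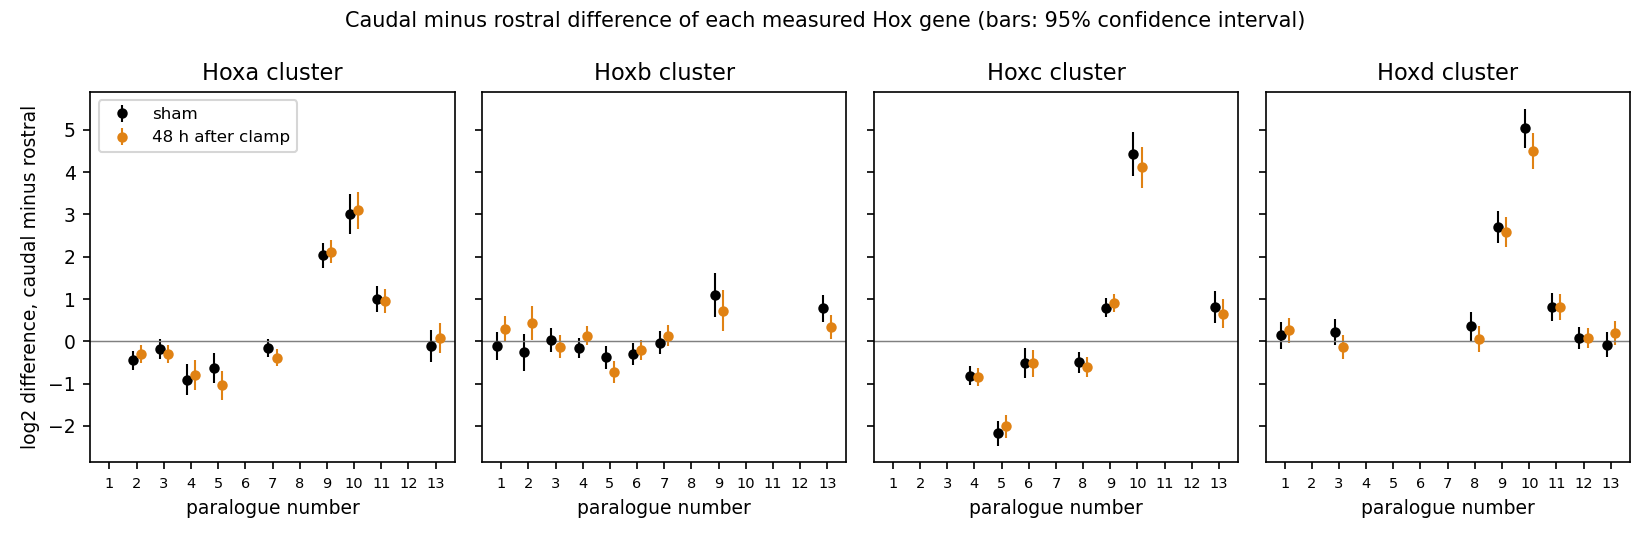
The log2 difference between caudal and rostral cord is plotted against paralogue number for each measured Hox gene, with 1 panel per cluster, in sham (black) and 48 h after clamping (orange); bars are 95% confidence intervals of the limma fit. In sham the paralogue 10 genes stand highest, at 3.02 (Hoxa10), 4.43 (Hoxc10) and 5.03 (Hoxd10), Hoxc5 stands lowest at −2.18, and the 48 h points lie close to the sham points.

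Paralogue group 10, which sets lumbar motor neuron identity, showed the largest differences. Hoxd10 had a log2 signal of 9.44, 9.34 and 9.33 on the sham caudal arrays and 4.27, 4.14, 4.71 and 4.22 on the sham rostral ones. These values left a gap of more than 4 units between the regions, and the log2 difference was 5.03 ± 0.22 (SE, limma adjusted p = 1.33e-08), which is 32.8-fold. Hoxc10 had 10.21, 10.16 and 10.48 in caudal cord against 5.35, 6.08, 5.78 and 6.22 in rostral cord, a difference of 4.43 ± 0.24 (adjusted p = 1.10e-07). Hoxa10 had 8.23, 7.94 and 7.87 against 5.23, 4.92, 4.88 and 4.95, a difference of 3.02 ± 0.22 (adjusted p = 2.69e-06). None of the 3 genes had a caudal array within the rostral range. Hoxa10 and Hoxd10 lay below the array's own lower quartile on all 4 rostral sham arrays, and no detection call comes with these values, so the size of their difference is limited by the background there.

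Paralogue group 9 was higher in caudal cord in 3 of its 4 genes. Hoxd9 read 10.09, 9.91 and 10.39 on the sham caudal arrays and 7.37 to 7.47 on the 4 rostral ones, which gave 2.70 ± 0.18 (adjusted p = 8.04e-07). Hoxa9, with 11.37, 11.42 and 11.43 against 9.11 to 9.55, gave 2.03 ± 0.14 (adjusted p = 1.73e-06). Hoxc9, which in the embryo sets thoracic motor neuron identity and restrains the limb-level programme, lay above the array's lower quartile in both regions. Its values were 8.69, 8.52 and 8.66 below T6 and 7.75 to 7.92 above it, a difference of 0.795 ± 0.105 (SE, adjusted p = 0.0012). Hoxb9 did not pass, with a difference of 1.10 ± 0.25 (adjusted p = 0.0916). Its 3 caudal arrays, at 9.09, 9.39 and 9.11, all lay above the rostral ones, which spread from 7.49 to 8.66.

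Further towards the end of the clusters the differences were smaller. Hoxa11 had 6.31, 6.26 and 6.63 in caudal against 5.28 to 5.54 in rostral sham cord (1.002 ± 0.145, SE, adjusted p = 0.00289). Hoxd11 had 5.22, 5.62 and 5.34 against 4.48 to 4.72 (0.81 ± 0.16, adjusted p = 0.0343). Hoxb13, a gene of the tail end of the axis, had 6.19, 6.00 and 5.63 against 5.01 to 5.28 (0.78 ± 0.15, adjusted p = 0.0277). In all 3 genes the regions did not overlap in sham, but the rostral signals of Hoxd11 lay below the array's lower quartile on 4 of 4 arrays and those of Hoxb13 on 2 of 4. Hoxc13 did not pass (0.81 ± 0.17, adjusted p = 0.0653). Hoxd12 and the digit and genital genes Hoxa13 and Hoxd13 differed by 0.09, −0.10 and −0.08, with 95% intervals that lay within −0.49 and 0.34. The call of Hoxd11 ended without any 1 of the 7 sham arrays, without rostral 48 h array 271, 272 or 273 or without caudal 48 h array 273 (adjusted p from 0.0502 to 0.267). That of Hoxb13 ended without rostral 48 h array 271 and without each sham array other than caudal 280 (0.0502 to 0.227).

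On the rostral side Hoxc5 was the member with the largest difference. With its paralogue Hoxa5 it is known for phrenic motor neurons at cervical level. It had 6.00, 6.46 and 5.98 on the sham caudal arrays and 8.28, 8.20, 8.48 and 8.31 on the rostral ones, so that the regions were well separated (−2.18 ± 0.13, SE, adjusted p = 4.10e-07). Hoxc4 had 8.18, 8.25 and 8.35 against 9.02 to 9.13 (−0.81 ± 0.11, adjusted p = 0.00106). Hoxa4 had 5.77, 5.86 and 5.76 against 6.52 to 6.79 (−0.90 ± 0.17, adjusted p = 0.0328). The Hoxa4 call ended without any 1 of the 7 sham arrays, without rostral 48 h array 271 or 273 or without caudal 48 h array 273 (adjusted p from 0.0517 to 0.181), whereas those of Hoxc4 and Hoxc5 held without each array in turn.

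The other members of groups 1 to 8 did not pass. Hoxa5 differed by −0.63 (adjusted p = 0.28), Hoxc6, a brachial motor column gene, by −0.51 (0.606) and Hoxc8, which patterns motor pools of the forelimb, by −0.50 (0.112). For each of the 3 all caudal sham arrays lay below all rostral ones. Hoxa2, a hindbrain patterning gene, differed by −0.45 (0.144), and the remaining 12 lay between −0.38 (Hoxb5) and 0.35 (Hoxd8). Counting arrays rather than tests, 13 members lay higher and 11 lower on every caudal than on every rostral sham array, where 12.1% and 8.68% of all genes did. Hoxb1 and Hoxb7, like Hoxa13 and Hoxd12, were below the array's lower quartile on all 22 arrays, so a difference between regions could not be seen for them here.

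Along each cluster the difference stepped up between the last measured gene of groups 7 or 8 and that of group 9. It went from −0.17 (Hoxa7) to 2.03 (Hoxa9), from −0.03 (Hoxb7, a member at background) to 1.10 (Hoxb9, not called) and from −0.50 (Hoxc8) to 0.795 (Hoxc9). The signs were not uniform on either side of this step, since Hoxb3 was at 0.03 and Hoxa13 at −0.10, neither of them called. The Hoxd cluster had no member clearly lower in caudal cord: Hoxd1, Hoxd3 and Hoxd8 differed by 0.15, 0.22 and 0.35 without passing, and Hoxd9 by 2.70. The clusters thus contributed unequally to the calls, with 3 higher and 1 lower of 9 Hoxa genes, 1 higher of 9 Hoxb genes, 2 higher and 2 lower of 7 Hoxc genes and 3 higher of 8 Hoxd genes. Other probe sets of the same genes gave a check on these signs. Of 15 further probe sets, on 11 members, 13 had the sign of the one used, including all 5 on members that passed. For Hoxc5 the other probe sets gave −1.31 and −1.16, for Hoxa9 0.91 and for Hoxa10 0.41, so the size of a difference depended on the probe set.

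**Figure D2:**
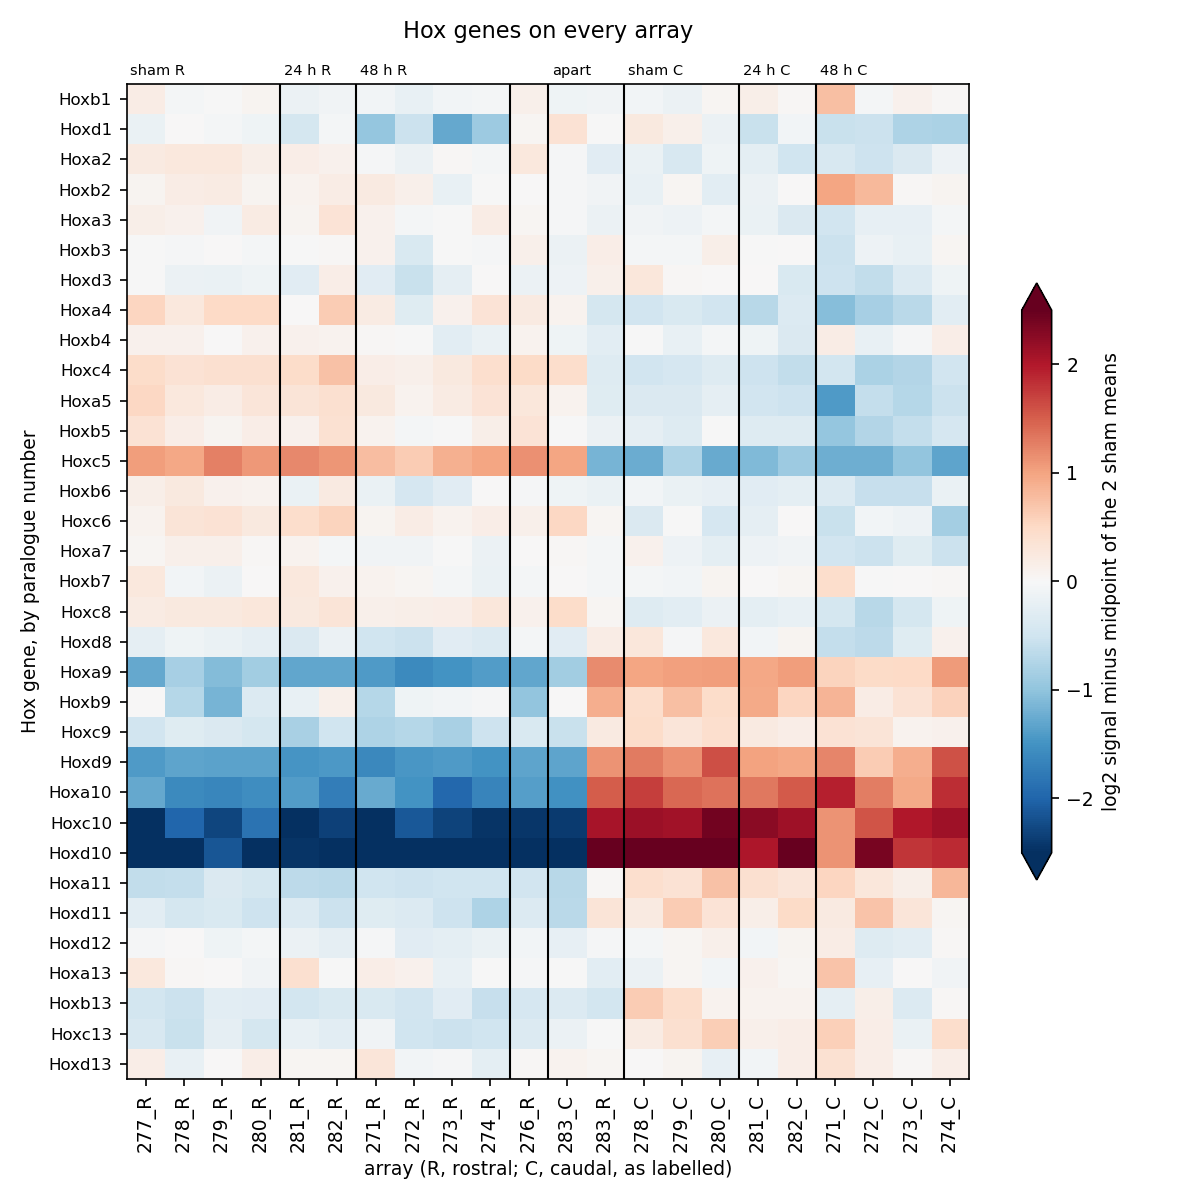
Each cell gives the log2 signal of 1 Hox gene on 1 array minus the midpoint of its sham rostral and sham caudal means, from blue (lower) to red (higher), with genes ordered by paralogue number and the colour scale closed at 2.5 either way. The caudal arrays on the right and the rostral ones on the left form opposite blocks around groups 9 to 11 and group 5, and the columns of both arrays numbered 283 resemble the region opposite to their label.

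The pattern was present again 48 h after clamping. With limma 16 of the 33 Hox genes differed between regions, 9 higher and 7 lower below T6, where 5.67% of all genes did (3.81% higher and 1.86% lower). Of the 12 genes called in sham, 11 were called again with the same sign, which is 91.7% of the sham calls and 68.8% of those at 48 h. These 2 comparisons share no array, though they share the estimate of the spread. The sham call not repeated was Hoxb13, with a difference of 0.34 (adjusted p = 0.167). The 5 genes called only at 48 h were Hoxa5 (−1.04, adjusted p = 0.00152), Hoxb5 (−0.72), Hoxc8 (−0.60) and Hoxa7 (−0.38) on the lower side and Hoxc13 (0.65, adjusted p = 0.0279) on the higher side. All 17 genes called in either condition had the same sign in both. A further Hoxa5 probe set changed by −0.015 in caudal and −0.058 in rostral cord at 48 h against sham. The one used changed by −0.499 and −0.091, so the size of the 48 h difference depended on the probe set. Hoxc13 lay below the array's lower quartile on all 4 sham rostral arrays, so its difference is limited by the background. The calls of Hoxa7 and Hoxc13 rested on single arrays. Hoxa7 ended without rostral 48 h array 271, 272, 273 or 274 or caudal 48 h array 272 (adjusted p from 0.0571 to 0.0978), and Hoxc13 without rostral 48 h array 272, 273 or 274 (0.0729 to 0.0979). In a fit of the 48 h arrays alone 9 members passed.

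The separate arrays show this for the members with the largest differences. On the 48 h caudal arrays Hoxd10 read 7.98, 9.23, 8.64 and 8.71 and on the rostral ones 3.98, 4.27, 4.15 and 4.18, a difference of 4.49 ± 0.20 (SE, adjusted p = 2.24e-08). Hoxc10 read 9.19, 9.64, 10.08 and 10.19 against 5.32 to 5.96 (4.11 ± 0.22, adjusted p = 2.03e-07). Hoxc5 read 6.00, 6.01, 6.24 and 5.91 against 7.87 to 8.21 (−2.01 ± 0.12, adjusted p = 3.80e-07). The lowest caudal Hoxd10 and Hoxc10 signals were those of array 271, and they still lay above every rostral array. Hoxa10, at 8.46, was instead highest on array 271 among the 48 h caudal arrays. This array had the lowest means of the neuronal (11.50), astrocyte (11.07) and oligodendrocyte (12.60) markers of all arrays. The test of the difference itself, that is of the 48 h change in caudal minus that in rostral cord, called 0 of the 33 Hox genes with limma. Of all genes 0.379% passed (0.286% higher and 0.0934% lower). At an unadjusted limma p under 0.05 were 2 of the 33 Hox genes and 1490 of all 18193 genes. The estimates ran from −0.54 (Hoxd10) to 0.70 (Hoxb2), and their 95% intervals lay within −1.17 and 1.29. The half-widths of these intervals were 0.29 to 0.72, and changes of the regional difference of that size could be missed with this number of arrays. The intervals are not adjusted for the number of genes tested, so larger changes could go uncalled too. Hoxb2, with an interval of 0.11 to 1.29, did not pass (limma adjusted p = 0.54).

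**Figure D3:**
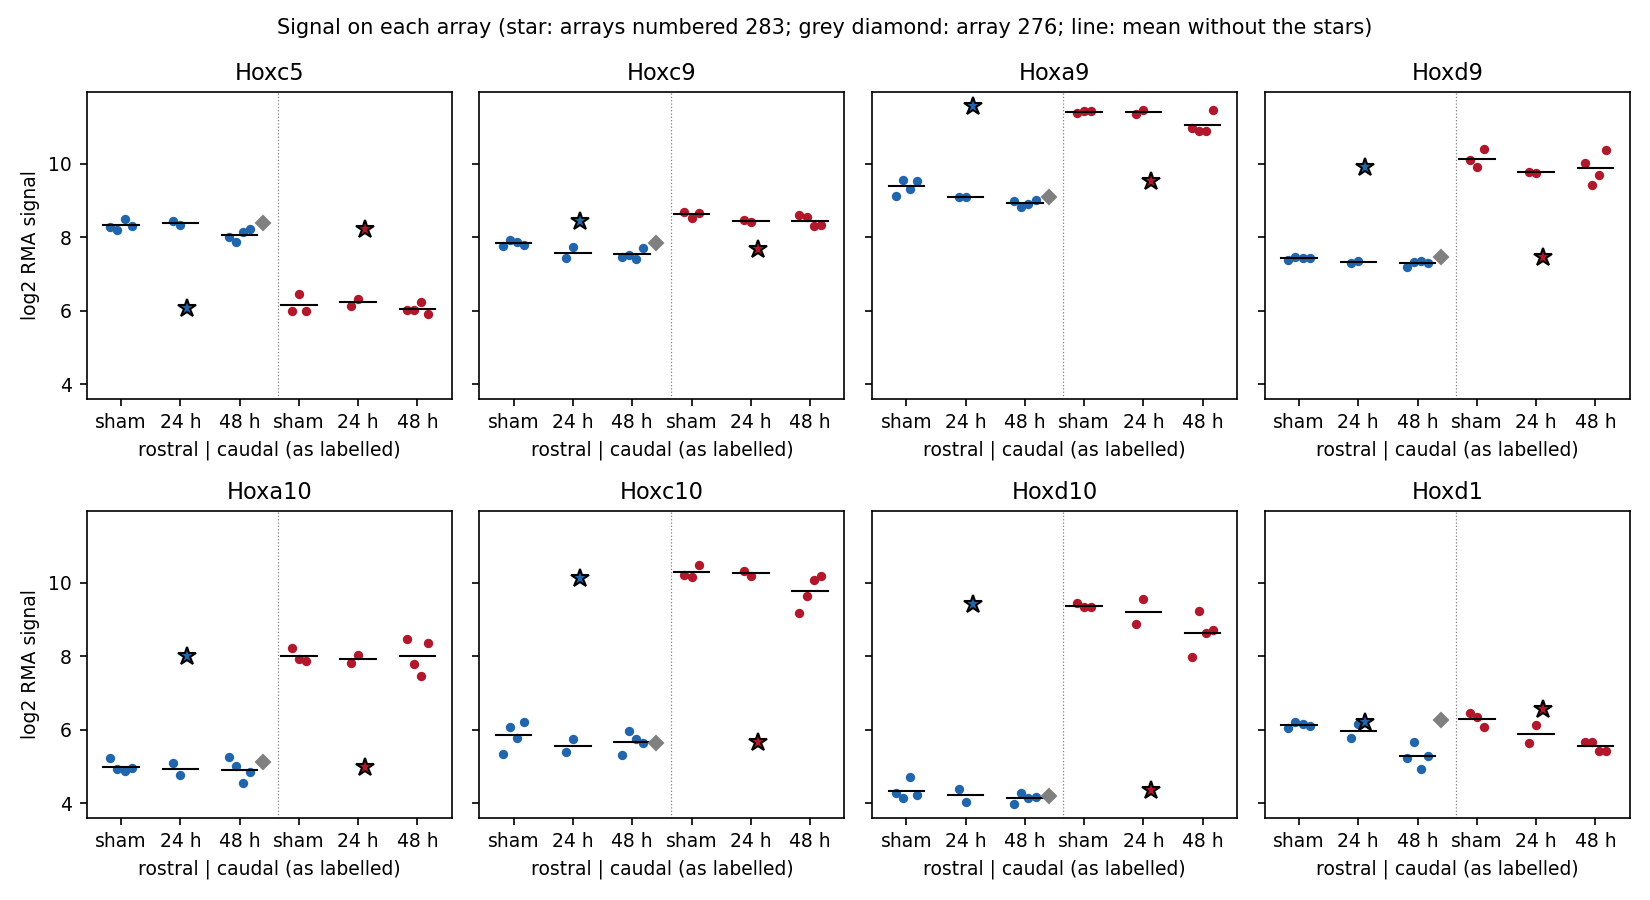
The log2 signal of 8 Hox genes is plotted for every array, by region as labelled (rostral blue, caudal red) and by condition; stars are both arrays numbered 283, grey diamonds array 276 and lines group means without the stars, and levels of different genes are not comparable because their probes differ. For Hoxc5 and for the group 9 and 10 genes shown the stars sit in the range of the opposite region, except the star labelled rostral for Hoxa9, which at 11.57 lies above the caudal arrays (up to 11.45), and Hoxd1 is lower at 48 h than in sham in both regions.

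Over all conditions, with both arrays numbered 283 apart and array 276 counted as rostral, 9 caudal arrays stood against 11 rostral ones. For 9 members every caudal array was above every rostral one, against 0.385% of all genes: Hoxa9, Hoxa10, Hoxa11, Hoxb9, Hoxc9, Hoxc10, Hoxd9, Hoxd10 and Hoxd11. For 5 members every caudal array was below, against 0.0989% of all genes: Hoxa5, Hoxc4, Hoxc5, Hoxc6 and Hoxc8. Both arrays numbered 283 were left out for their Hox genes, so these counts over all conditions are a description. Hoxb9 and Hoxc6 belonged to these sets although neither passed the test in sham or at 48 h. Hoxc8 read 10.60 to 11.18 on the caudal and 11.40 to 11.61 on the rostral arrays, and Hoxc6 7.54 to 8.40 against 8.45 to 8.94.

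At 24 h the regional comparison was not the same with and without the arrays numbered 283. As labelled, limma called 0 of the 33 Hox genes between caudal and rostral cord and 0% of all genes. At an unadjusted limma p under 0.05 were 4 of the 33 Hox genes and 57 of all 18193 genes. For Hoxd10 the arrays labelled caudal had 8.88 (281), 9.55 (282) and 4.37 (283), and those labelled rostral 4.40, 4.05 and 9.41. Hoxc5 was inverted in the same way, at 6.13, 6.32 and 8.22 against 8.43, 8.33 and 6.07. On number 283 Hoxa9 was 9.53 under the caudal and 11.57 under the rostral label, and Hoxd9 7.46 and 9.90. Without both arrays numbered 283, 9 Hox genes were called and 0.132% of all genes. Since these arrays were set apart for their Hox genes, that count is a description and no support. The 9 were Hoxd10 (4.99 ± 0.29, SE), Hoxc10 (4.69 ± 0.30), Hoxa10 (2.99 ± 0.28), Hoxd9 (2.44 ± 0.22), Hoxa9 (2.31 ± 0.17), Hoxa11 (1.02), Hoxc9 (0.85), Hoxc4 (−1.16) and Hoxc5 (−2.16), from 2 arrays a region. All 12 genes called in sham had the same sign at 24 h.

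The place of each array along the rostral to caudal scale was expressed with the 7 members that passed in sham with a log2 difference of at least 1, namely Hoxa9, Hoxa10, Hoxa11, Hoxc5, Hoxc10, Hoxd9 and Hoxd10. On this scale 0 is the sham rostral mean and 1 the sham caudal mean, so sham arrays lie near them by construction. The 24 h and 48 h rostral arrays outside number 283 had medians from −0.070 to −0.012, and array 276 had −0.025. The corresponding caudal arrays had medians from 0.833 (273) to 1.088 (274). Of the arrays numbered 283, that with the caudal label had a median of 0.007, each of its 7 genes being nearer the rostral mean, and that with the rostral label 0.999, all 7 being nearer the caudal mean. Among all 24 members that did not overlap in sham, 18 were nearer the rostral mean under the caudal label and 20 nearer the caudal mean under the rostral label. The array with the rostral label did not match caudal cord in every member. Hoxb13 was 5.09 there, within the rostral range, and Hoxa11 was 5.93, at 0.536 of the scale. Markers of Schwann cells, which were not used for the scale, averaged 6.54 under the caudal and 7.81 under the rostral label of number 283. Over the rest of the arrays the same mean was 8.07 to 8.86 in caudal and 6.13 to 6.66 in rostral cord.

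**Figure D4:**
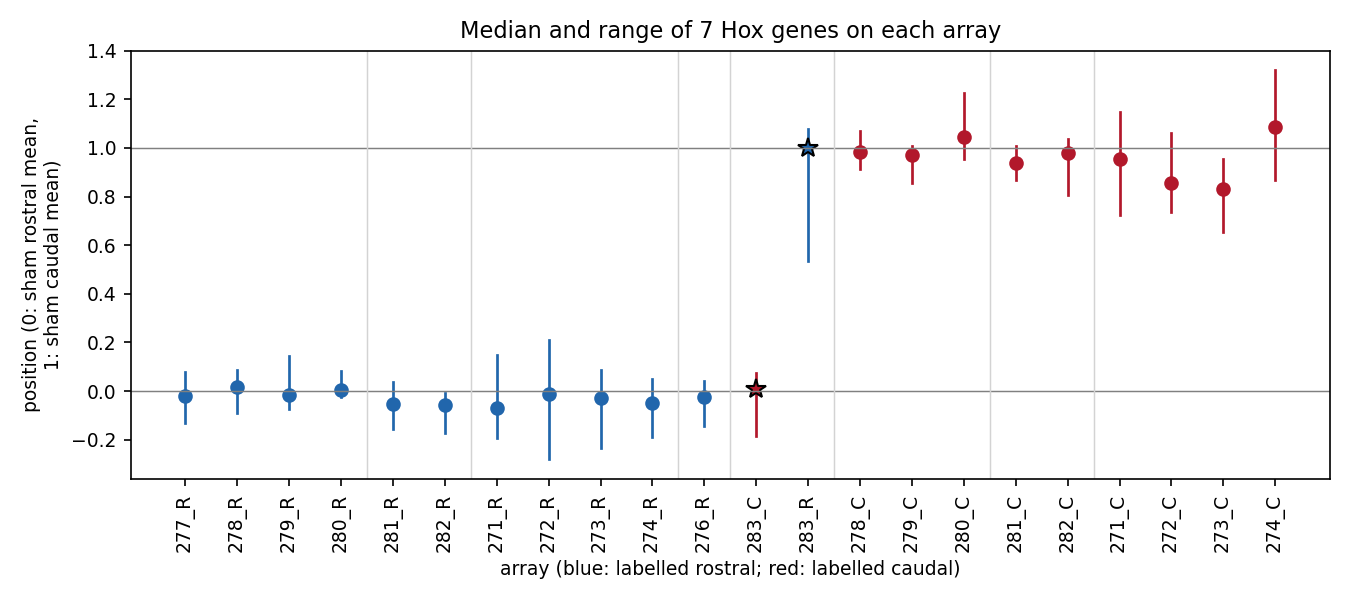
For each array the point is the median and the line the range of the position of 7 Hox genes, with 0 the sham rostral and 1 the sham caudal mean; blue arrays are labelled rostral, red arrays caudal and stars are the arrays numbered 283. The stars sit at 0.999 (labelled rostral) and 0.007 (labelled caudal), and no other array lies on the side opposite to its label.

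Within a region few Hox genes were called after clamping, and those called at 48 h fell. In caudal cord 48 h after clamping 3 of the 33 Hox genes (9.09%) fell against sham and 0 rose with limma. Of all genes 5.61% passed, 3.55% higher and 2.06% lower. At an unadjusted limma p under 0.05 were 11 of the 33 Hox genes and 5009 of all 18193 genes. The median over the Hox genes was −0.18, with 7 of 33 above 0, and that over all genes 0.00. In rostral cord 1 of 33 (3.03%) fell and 0 rose, against 0.374% of all genes called, 0.324% higher and 0.0495% lower. At an unadjusted limma p under 0.05 were 7 of the 33 Hox genes and 1057 of all 18193 genes. The rostral median over the Hox genes was −0.14, with 2 of 33 above 0, against −0.02 over all genes.

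Hoxd1, a gene known for pain-sensing neurons in the mouse and for the front end of its cluster, was the member that passed in both regions. On the rostral arrays it read 6.05, 6.22, 6.16 and 6.11 in sham and 5.24, 5.67, 4.92 and 5.30 at 48 h (−0.85 ± 0.14, SE, limma adjusted p = 0.0104). On the caudal arrays it read 6.45, 6.34 and 6.07 in sham and 5.66, 5.68, 5.44 and 5.41 at 48 h (−0.74 ± 0.15, adjusted p = 0.0107). At 24 h it was 5.78 and 6.16 on rostral arrays 281 and 282 and 5.65 and 6.13 on the caudal ones, with 6.20 and 6.58 on the arrays labelled rostral and caudal 283. Array 276, whose labels give both times, had 6.26, just above the rostral sham values. Its heart muscle mean of 10.81 lay within the range of the 48 h rostral arrays (9.54 to 11.12), where 24 h rostral arrays reached 5.55. Counted as 48 h, array 276 ended both calls (adjusted p = 0.56 in rostral and 0.0607 in caudal cord). The rostral call also ended without sham rostral array 278 or 279 (adjusted p = 0.0558 and 0.051), and the caudal call without sham caudal array 278 or 279 (0.0752 and 0.06).

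The other calls in caudal cord were weaker. Hoxb5 had 9.46, 9.36 and 9.67 in sham and 8.72, 8.96, 9.09 and 9.26 at 48 h (−0.49 ± 0.13, SE, adjusted p = 0.0377). Hoxa7 had 9.52, 9.29 and 9.16 in sham and 8.93, 8.87, 9.10 and 8.87 at 48 h (−0.38 ± 0.10, adjusted p = 0.0389). Sham and 48 h values did not overlap in either gene or in Hoxd1, but the share of all genes without such overlap is not given here. The count of 3 depended on single arrays. It was 0 without sham caudal array 278 or 279, 1 without rostral array 271 or 273 (48 h) or 278, 279 or 280 (sham), and 12 without caudal 48 h array 274. The Hoxb5 call ended in 10 and the Hoxa7 call in 11 of 15 such omissions, with adjusted p up to 0.164 and 0.207, and in a fit of the caudal sham and 48 h arrays alone the count was 0. Just outside the threshold stood Hoxd3 (−0.51, adjusted p = 0.0502), Hoxd8 (−0.53, 0.0615), Hoxd10 (−0.73, 0.062) and Hoxb13 (−0.48, 0.0682). Hoxb2, a gene of hindbrain and anterior cord, was 10.00 and 9.83 on 48 h caudal arrays 271 and 272 and between 8.76 and 9.25 on the other 20 arrays; it did not pass (0.61 ± 0.20, adjusted p = 0.0896). The mean of the 6 neuronal markers was lower on all 4 caudal 48 h arrays, at 11.50 (array 271), 12.42, 12.52 and 12.54, than on the 3 sham caudal ones, at 12.63 to 12.69. The median difference of these markers was −0.405, and none of them passed. Their part in the caudal Hox differences was not tested.

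At 24 h no member passed against sham. As labelled, limma called 0 of 33 in caudal cord (0.0055% of all genes called) and 0 of 33 in rostral cord (0% of all genes). At an unadjusted limma p under 0.05 were 3 Hox genes and 529 of all 18193 genes in caudal cord, and 1 and 141 in rostral cord. Without both arrays numbered 283 the counts of called Hox genes were again 0 and 0. No Hox gene was then at an unadjusted p under 0.05, where 334 of all genes were in caudal and 66 in rostral cord. The caudal differences then ran from −0.39 (Hoxd1) to 0.20 and the rostral ones from −0.29 to 0.52, and their 95% intervals lay within −0.80 and 0.80 in caudal and −0.85 and 1.09 in rostral cord, with 2 clamped arrays a region.

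**Figure D5:**
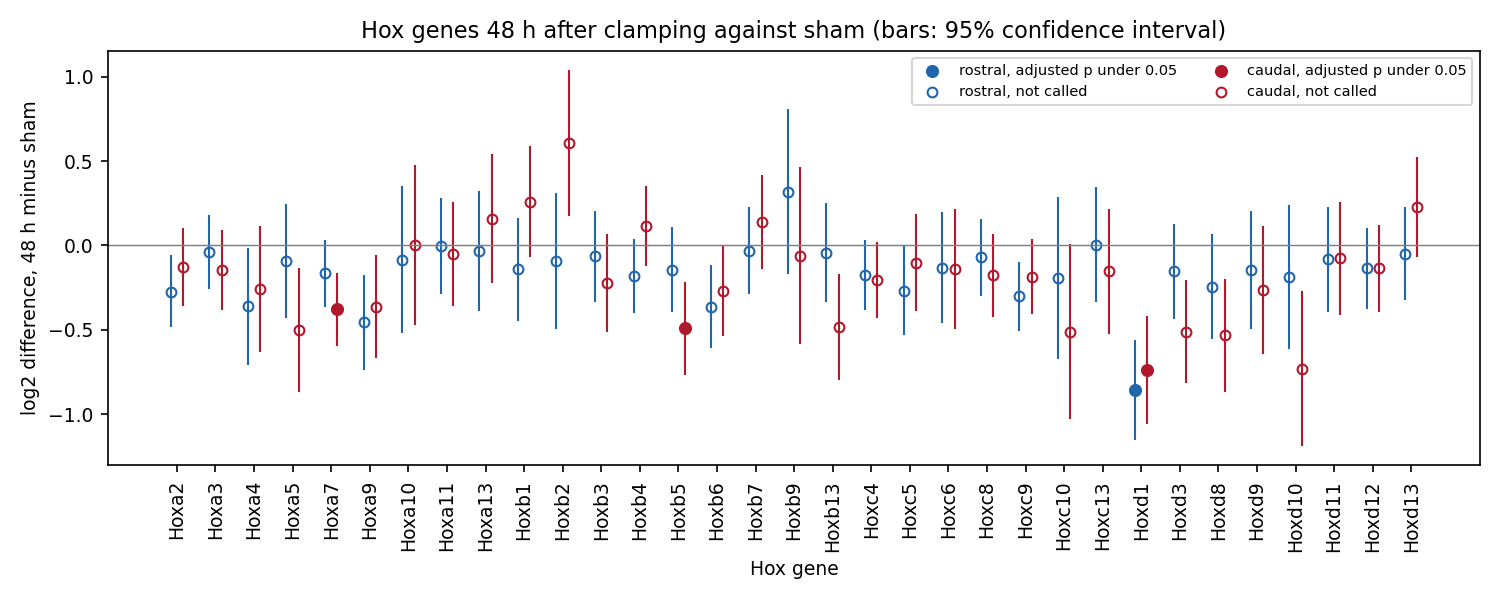
The log2 difference between 48 h after clamping and sham is plotted for each Hox gene in rostral (blue) and caudal (red) cord with its 95% confidence interval; filled points passed a limma adjusted p of 0.05. Hoxd1 is filled in both regions, at −0.85 and −0.74, and Hoxa7 and Hoxb5 in caudal cord, at −0.38 and −0.49.

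Genes known to act with or on the Hox genes are given as counts, to be read against the shares of all genes called (0.429% and 5.67% between regions in sham and at 48 h, 5.61% and 0.374% for the 48 h change in caudal and rostral cord). None of 11 measured Hox cofactors of the Pbx, Meis, Pknox and Tshz families was called by limma in the sham or 48 h regional comparison or against sham in either region. The smallest p among them in caudal cord at 48 h was that of Meis2 (−0.64 ± 0.21, SE, adjusted p = 0.0851). Of 25 Polycomb and Trithorax group genes, which keep Hox genes silent or active, 0 differed between regions in sham and 1 at 48 h, Kdm6b (higher in caudal cord, 1.04 ± 0.23, SE, adjusted p = 0.0159). Against sham, 1 rose and 1 fell in caudal cord at 48 h and 0 in rostral cord. Kdm6b, a demethylase that removes the Polycomb mark, rose in caudal cord (1.08 ± 0.25, SE, adjusted p = 0.021) and Ctcf, an insulator protein that binds within Hox clusters, fell (−0.52 ± 0.11, adjusted p = 0.0111). Of 17 retinoic acid and trunk patterning genes 1 fell there, the retinoic acid receptor gene Rarb (−0.50 ± 0.11, adjusted p = 0.0168). Rarb was also the 1 gene of this list called between regions at 48 h, lower in caudal cord (−0.53 ± 0.10, adjusted p = 0.007), and 0 were called in sham. Among 9 measured non-coding genes and neighbours of the clusters, the antisense transcript Hoxa11os was higher in caudal cord at 48 h (0.54 ± 0.13, adjusted p = 0.0273) but did not pass in sham (0.42, adjusted p = 0.679). Skap2, which lies beside the Hoxa cluster, rose in caudal cord at 48 h (0.795 ± 0.115, adjusted p = 0.00101) and was then higher there than in rostral cord (0.43 ± 0.11, adjusted p = 0.0306). Of 13 motor column genes, Isl1, a motor and sensory neuron transcription factor, was higher in caudal sham cord (0.92 ± 0.15, adjusted p = 0.011), and Pou3f1 rose in caudal cord at 48 h (1.72 ± 0.34, adjusted p = 0.00871), where it was also higher than in rostral cord (1.47 ± 0.31, adjusted p = 0.0131).

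Markers of tissue outside the cord also differed, between regions or after clamping. All 3 measured Schwann cell markers were higher in caudal sham cord, where their mean was 8.57 to 8.65 against 6.26 to 6.66 in rostral cord. Of 4 measured sensory ganglion markers 2 were higher, with means of 6.00 to 6.78 against 4.87 to 5.10. At 48 h all 3 Schwann cell markers and 0 of the 4 sensory ganglion markers were called higher in caudal cord. At 48 h all 8 heart muscle genes had risen in rostral cord and 5 of 8 in caudal cord against sham, with limma. Between regions 0 of the 8 were called in sham, and all 8 were lower in caudal cord at 48 h. Skeletal muscle markers averaged 9.89 on rostral 48 h array 273 and 7.03 on the array labelled caudal 283, against 5.24 to 5.68 on the sham arrays. The part of these tissues in the Hox differences was not tested.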

How the data were processed

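Total RNA was hybridised to 22 Affymetrix Mouse430_2 arrays. The deposited log2 values were made by the authors with RMA, per the submitters' processing notes, with no version given, and were used unchanged. Of 45101 probe sets, 34945 carried 1 gene symbol in the platform annotation, and the brightest per gene gave 18193 genes. Arrays have no read depth, so their number limits the precision.

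Means for 4 groups (sham and 48 h in both regions, 15 arrays) were fitted in R 4.3.3 by lmFit and eBayes of limma 3.58.1, with statmod 1.5.0 for random blocks. The 24 h contrasts used all 6 groups as labelled (21 arrays), with a description without both arrays numbered 283. Tests were two-sided, and a gene was called at an adjusted p (Benjamini-Hochberg, over all genes) under 0.05. The fit was tested on simulated data. Title numbers were not taken as pairs. All listed Hox genes were described; for the other lists, counts and members with the smallest p. The members and lists were chosen with earlier results of these data known, and the heart muscle list after the data had been seen. Alternatives were other array sets, weights, priors, scalings, probe set rules, a 2-fold threshold, replicate blocks, either time for array 276, and the omission of each array. Promoter windows came from RefSeq (GRCm38.p6).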

Additional observations from a re-analysis of the deposited data

Results flagged for a closer look

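For 99 combinations of a Hox gene and a group of 4 arrays, the highest or lowest array was compared with the other 3 by Dixon's criterion, which chance meets in about 1 in 20 groups. It was met 6 times. On the 48 h caudal arrays Hoxa9 was 11.45 on array 274 against 10.88 to 10.95 on the others, and Hoxb7 was 4.83 on array 271 against 4.36 to 4.42. On the 48 h rostral arrays Hoxb1 was 3.84 on array 272 against 3.97 to 3.99. On array 271 of the same group Hoxb9 was 7.93 against 8.54 to 8.61, and Hoxc13 was 5.35 against 4.91 to 4.95. In sham rostral cord Hoxb4 was 7.57 on array 279 against 7.67 to 7.68. Hoxb1 and Hoxb7 are among the members with signals below each array's lower quartile on all 22 arrays. No difference between regions in the 48 h change passed for a Hox gene.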

How the results depend on the processing

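No Hox gene named as called reversed its sign under any alternative run. The sham calls of Hoxc5, Hoxd9 and Hoxd10 held in every one that tested them, and those of Hoxa9, Hoxa10 and Hoxc10 in all except the fit of 21 arrays as labelled (adjusted p = 0.0737, 0.0501 and 0.0537). The number of Hox genes called between regions in sham (12) was 5 with 21 arrays as labelled, 21 with the sham arrays alone, 21 with array weights, 4 among brighter genes only and 6 for a change of at least 2-fold. Leaving out 1 array gave 9 to 17. Between regions at 48 h (16) it was 9 with those arrays alone, 8 among brighter genes and 6 for a 2-fold change, and 14 to 18 with 1 array left out. For caudal cord at 48 h against sham (3) it was 7 with 21 and 6 with 19 arrays, 0 with the groups alone, 16 with array weights, 1 with eBayes trend and robust, 1 with quantile normalisation repeated, 0 for a 2-fold change, and 12 without caudal arrays 271, 274 and 280, an alternative chosen after seeing the data. With 1 array left out it was 0 to 12. For rostral cord (1) it was 3 with the groups alone, 6 with weights, 0 among brighter genes, 0 for a 2-fold change, 0 with array 276 as 48 h and 3 without caudal arrays 271, 274 and 280, and 0 to 1 with 1 array left out. The difference between regions in the 48 h change (0) was 1 with array weights, as was the 24 h caudal count (0). The 24 h regional count (0) was 9 without both arrays numbered 283. These 3 and the 24 h rostral count stayed at 0 with 1 array left out. Brighter genes test fewer members, and a group alone has fewer arrays to estimate the spread; the cause of the other shifts was not tested.

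No label ties a title number to an animal, and the numbers were not taken as pairs because a correlation of deviations above 0.1 was not met by every pair: it was 0.25 to 0.53 in the 4 pairs at 48 h, 0.28, 0.22 and 0.09 in sham and −0.45 to −0.03 at 24 h. As a hint from the data, 13 of 14 sham and 48 h arrays correlated best with their own number. With the number as a random replicate block the counts were 15 (sham), 17 (48 h), 4 (caudal 48 h), 1 (rostral 48 h) and 0 for the other contrasts. As a fixed replicate block they were 8 in sham, 16 at 48 h and 0 for the difference of changes. The sham calls that ended under the fixed block were Hoxa11 (adjusted p = 0.0521), Hoxc9 (0.0615), Hoxa4 (0.0885) and Hoxb13 (0.39). The numbers run in blocks with the condition, so an effect of their order cannot be told apart from treatment. Members near the array's lower quartile have differences limited by background.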
